A study of Homo sapiens with 6 samples.

Results

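The NRF2, glutathione and antioxidant genes described here are 36 genes with textbook roles in the defence against oxidants. They were chosen by gene symbol, and all 36 were found among the 46427 genes of the count table. RNA-seq compared parental cells of HCT116, a line from a human colon carcinoma (*ZK3*-WT), with *ZK3*-KO cells. In the latter, both alleles of *ZKSCAN3*, which encodes a zinc finger transcription factor, had been mutated with CRISPR/Cas9. For each genotype 3 biological replicates gave a stranded mRNA library each, and all cells grew in DMEM with 10% FBS and no added treatment. The *ZK3*-KO line came from a single cell that was transfected with a Cas9 plasmid and selected in puromycin, whereas the *ZK3*-WT cells were the untransfected parent. The genotype, the selection and the history of the clone therefore cannot be told apart.

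NRF2, encoded by *NFE2L2*, is a transcription factor whose protein is kept low by KEAP1, the adaptor of a cullin ubiquitin ligase. Oxidants and electrophiles modify cysteines of KEAP1, NRF2 then escapes degradation, and with a small MAF protein it binds antioxidant response elements near genes for glutathione synthesis, the thioredoxin cycle, NADPH supply, quinone and carbonyl reduction, and haem and iron handling. Glutathione and thioredoxin pass electrons from NADPH to peroxidases, which remove hydrogen peroxide and lipid peroxides. In colon carcinoma cells the same system is known for tolerance to drugs and for protection from ferroptosis, a form of cell death driven by iron and lipid peroxides. These controls act largely on proteins, which RNA-seq does not measure.

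The promoters of the members were searched for the core of the antioxidant response element, TGACNNNGC, on both strands from 250 bases before to 50 bases after each start site. The set of RefSeq promoters used here held 42 promoters for 29 of the 36 genes (GRCh38.p14). It gave none for *HMOX1*, *FTH1*, *PRDX1*, *PRDX6*, *GSR*, *GSS* and *AKR1B10*, which were therefore not searched. Of the 42 promoters 8 (19.0%) contained the core, against 13.3% of 35116 promoters of all genes in the set and 14.4% of the promoters of tested genes. The 8 promoters belong to *GCLM*, *GPX2*, *GSTP1*, *KEAP1*, *MGST1*, *PGD* and *TXNRD1*. The matches of the NRF2 inhibitor, of the member with the smallest p-value and of genes for glutathione synthesis, conjugation and thioredoxin reduction are shown on the strand of each gene, with the core in capitals.
KEAP1, chr19:10502772-10502850: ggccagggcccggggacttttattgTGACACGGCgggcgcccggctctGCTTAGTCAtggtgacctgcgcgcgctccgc
MGST1, chr12:16347135-16347163: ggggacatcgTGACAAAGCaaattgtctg
GCLM, chr1:93909431-93909489: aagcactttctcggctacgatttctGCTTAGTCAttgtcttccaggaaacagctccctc
GSTP1, chr11:67583721-67583779: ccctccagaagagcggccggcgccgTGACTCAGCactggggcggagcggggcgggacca
TXNRD1, chr12:104215655-104215713: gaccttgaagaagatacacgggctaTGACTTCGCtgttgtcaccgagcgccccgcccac
TXNRD1, same promoter, chr12:104215761-104215789: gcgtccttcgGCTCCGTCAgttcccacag
TXNRD1, second promoter, chr12:104286905-104286963: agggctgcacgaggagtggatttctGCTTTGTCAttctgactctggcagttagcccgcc
The *KEAP1* promoter shown held 2 matches on opposite strands, 54 and 31 bases before the start site, and the other *KEAP1* promoter held none. The *MGST1* match lay 30 bases after the start site, and the other *MGST1* promoters held none. The first *TXNRD1* promoter held 2 matches on opposite strands, 99 and 8 bases before its start site. The *GSTP1* match overlaps TGACTCA, the sequence bound by AP-1. A match describes the letters of the window only and is not evidence of binding.

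The libraries held between 60827060 and 69739215 counted reads. Levels are given as CPM, the share of a library's reads after TMM normalization in units of 1e+06 reads, and 18366 genes passed edgeR's expression filter and were compared by its quasi-likelihood test with a false discovery rate (FDR) over all of them. *ZK3*-KO replicate 3 stood apart from the other *ZK3*-KO libraries, so log2 ratios are also given without it. Across genes, log2(CPM + 1) of *ZK3*-KO replicates 1 and 2 correlated at 0.993. *ZK3*-KO replicate 3 correlated with these at 0.973 and 0.961, and with *ZK3*-WT replicates 1, 2 and 3 at 0.968, 0.968 and 0.978. The log2 ratio is the fitted *ZK3*-KO over *ZK3*-WT ratio of a gene with its standard error after the ± sign, means carry the SD, and values of single libraries follow the order of replicates 1, 2 and 3. *ZKSCAN3* had 28.1, 23.4 and 19.8 CPM across the *ZK3*-WT libraries against 25.4, 24.9 and 13.6 CPM across the *ZK3*-KO libraries, so its read number did not mark the genotype (log2 ratio -0.16 ± 0.27, FDR 0.797). The summed CPM of 9 proliferation genes was between 1498 and 2248 in *ZK3*-WT libraries and was 2886, 3819 and 987 in *ZK3*-KO replicates 1, 2 and 3. The summed CPM of 7 epithelial markers was between 2950 and 3742 in *ZK3*-WT libraries and reached 5448 in *ZK3*-KO replicate 3. Of 5 leukocyte markers *PTPRC* and *CD3E* had no read, and the list summed to between 1.79 and 10.4 CPM. The 5 fibroblast markers, nearly all *COL1A1*, summed to between 44.2 and 56.4 CPM in *ZK3*-WT libraries and between 32.3 and 98.9 CPM in *ZK3*-KO libraries, and the 4 endothelial markers to at most 2.50 CPM in any library.

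Most antioxidant genes had a higher fitted mRNA level in *ZK3*-KO cells, but no member passed the threshold. Log2 ratios ran from -0.39 for *NFE2L2* to 1.46 for *FTH1*. Of the 36 genes 35 were tested, 26 of them with a higher and 9 with a lower fitted level, and the median log2 ratio was 0.25 against 0.018 for all tested genes. With all 6 libraries 0 members passed an FDR of 0.05 in either direction in edgeR's test, while 0.817% of all tested genes passed as higher and 1.23% as lower. DESeq2 called 3 of the 35 members as higher (*MGST1*, *PRDX4* and *AKR1C3*), beside 711 of all 18366 genes. In edgeR 11 members (31.4%) had an unadjusted p-value under 0.05 with a higher level, against 8.89% of all genes, and 0 members had one with a lower level, against 9.46%.

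The genotypes did not overlap for 12 members. For 11 members (31.4%; 12.7% of all genes) every *ZK3*-KO library lay above every *ZK3*-WT library, namely *KEAP1*, *HMOX1*, *MGST1*, *TXN*, *PRDX1*, *PRDX4*, *PRDX6*, *TALDO1*, *AKR1B1*, *AKR1B10* and *AKR1C3*. For *GPX1* alone (13.8% of all genes) every *ZK3*-KO library lay below. On the deposited TPM values, which are scaled by transcript length and to a common library sum, the first count was 6 (*KEAP1*, *HMOX1*, *MGST1*, *PRDX4*, *AKR1B10* and *AKR1C3*) against 6.83% of all genes, and *GPX1* and *GPX4* lay below, against 18.4%. When *ZK3*-KO replicate 3 was left out, *MGST1*, *KEAP1*, *TXN* and *PRDX3* rose (11.4%; 7.41% of the 18872 genes then tested) and *NQO1* fell (2.86%; 7.73% of the genes tested). The median log2 ratio of the members was 0.15 without that library and 0.41 without *ZK3*-KO replicate 2.

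**Figure D1:**
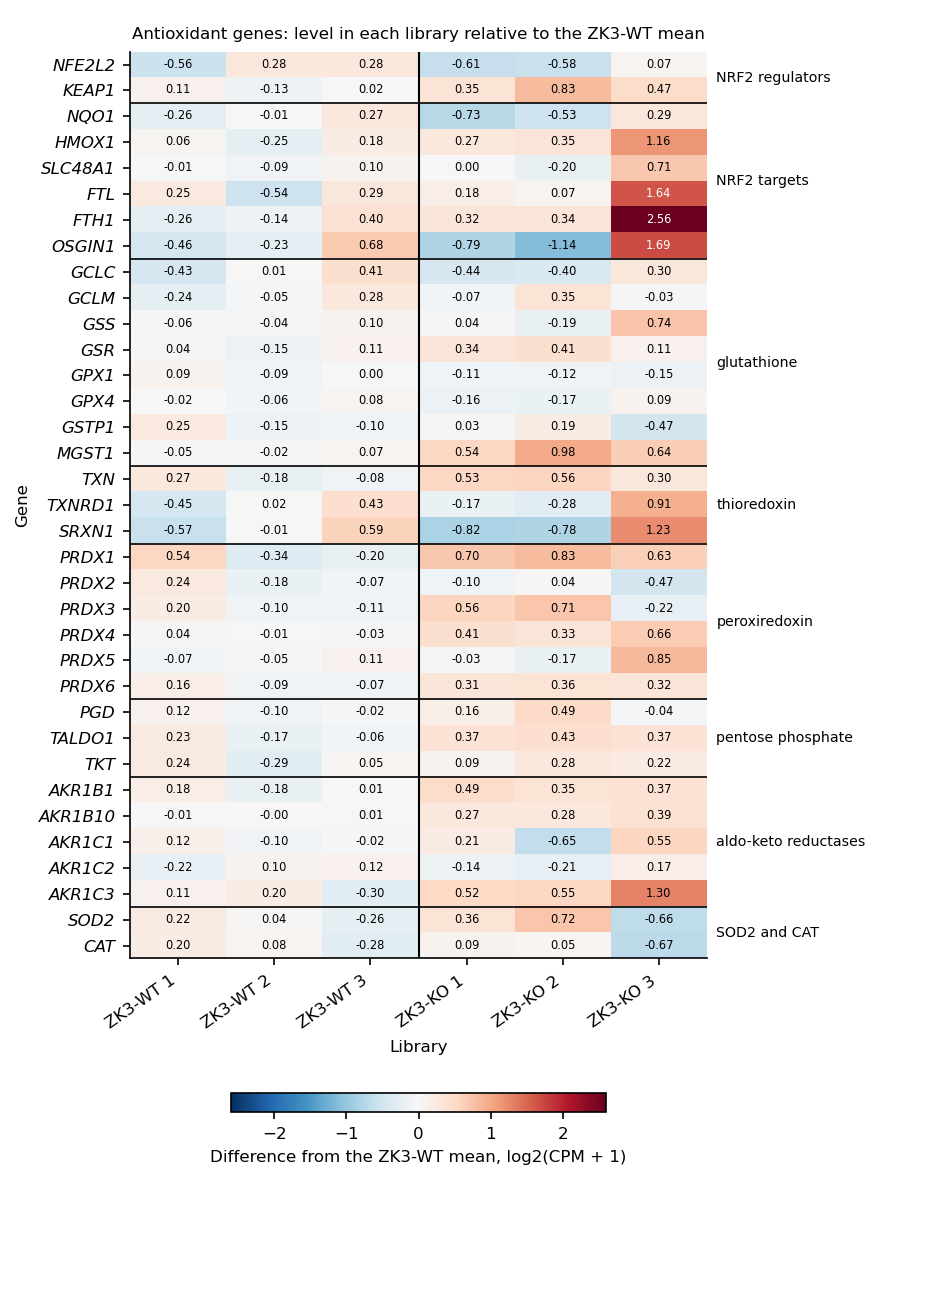
Level of each of the 35 tested antioxidant genes (rows, grouped by role) in each of the 6 libraries (columns), as the difference in log2(CPM + 1) from the *ZK3*-WT mean. The column of *ZK3*-KO replicate 3 holds the highest values, 2.56 for *FTH1* and 1.69 for *OSGIN1*, and also values of -0.66 for *SOD2* and -0.67 for *CAT*, while *MGST1*, *KEAP1* and *PRDX1* are above the *ZK3*-WT mean in all 3 *ZK3*-KO libraries.

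The heat map shows every tested member in every library, and it separates rows that had one sign in all *ZK3*-KO libraries from rows in which replicate 3 differed from replicates 1 and 2. The regulators themselves were not alike. *NFE2L2* (chr2:178083395-178257484, GRCh37, as are all gene positions) measured 113, 203 and 202 CPM (*ZK3*-WT) and 109, 111 and 176 CPM (*ZK3*-KO). *ZK3*-WT replicate 1 was as low as *ZK3*-KO replicates 1 and 2, *ZK3*-KO replicate 3 was close to the other *ZK3*-WT libraries in CPM, and the genotypes overlapped. On TPM *ZK3*-KO replicate 3 (117) lay further below *ZK3*-WT replicates 2 and 3 (175 and 161). *NFE2L2* had a log2 ratio of -0.39 ± 0.29 (FDR 0.522), smaller than the spread between replicates, and -0.65 without *ZK3*-KO replicate 3.

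*KEAP1* (chr19:10596801-10614234), whose product holds NRF2 for degradation, had 63.8, 53.6 and 59.6 CPM across the *ZK3*-WT libraries against 75.1, 105 and 82.0 CPM across the *ZK3*-KO libraries. No knockout library fell in the parental range, and replicate 2 was the highest. Means ± SD (n = 3 each) were 59.0 ± 5.12 CPM for *ZK3*-WT against 87.5 ± 15.9 CPM for *ZK3*-KO. The log2 ratio was 0.57 ± 0.17 (FDR 0.150). Without *ZK3*-KO replicate 3 it was 0.62 (FDR 0.0381), and across the 14 alternative fits the FDR was between 0.0381 and 0.495.

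Among the NRF2 targets for quinones, haem and iron, *ZK3*-KO replicate 3 had the highest CPM for all 6 genes, and the highest TPM for all except *NQO1*. Its CPM was up to 5.76 times the *ZK3*-WT mean, reached for *FTH1*. *ZK3*-KO replicates 1 and 2 were near or below the *ZK3*-WT level for 4 of these genes. The subgroup median, as a difference from the *ZK3*-WT mean in log2(CPM + 1), was 0.093, -0.061 and 1.40 in *ZK3*-KO replicates 1, 2 and 3. *FTH1* (chr11:61727190-61735106), the ferritin heavy chain that oxidizes and stores iron, measured 941, 1024 and 1492 CPM (*ZK3*-WT) and 1414, 1432 and 6643 CPM (*ZK3*-KO). The replicate 3 value rests on 410505 reads, and the other 5 libraries lay between 941 and 1492 CPM. *FTH1* had a log2 ratio of 1.46 ± 0.61 with all libraries (FDR 0.266) and 0.31 without *ZK3*-KO replicate 3.

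*FTL* (chr19:49468566-49470136), the ferritin light chain, had 1102, 637 and 1129 CPM across the *ZK3*-WT libraries against 1050, 974 and 2881 CPM across the *ZK3*-KO libraries. Again *ZK3*-KO replicate 3 alone lay outside the *ZK3*-WT range, and the log2 ratio was 0.77 ± 0.45 (FDR 0.410) with it and 0.089 without it. Ferritin genes have many processed copies in the genome. The table lists 20 *FTH1* pseudogenes, which together held at most 1892 reads in any library, and 10 *FTL* pseudogenes with at most 39 reads, so nearly all of these reads were assigned to the parent genes, and a part shared with copies cannot be separated.

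*OSGIN1* (chr16:83964916-83999937), a growth inhibitor induced by oxidative stress, measured 19.9, 23.5 and 45.1 CPM (*ZK3*-WT) and 15.6, 12.1 and 91.7 CPM (*ZK3*-KO). *ZK3*-KO replicates 1 and 2 lay below every *ZK3*-WT library and replicate 3 above all of them, and within each genotype replicate 3 was the highest. The log2 ratio of *OSGIN1* turned from 0.43 ± 0.75 (FDR 0.805) to -1.09 without *ZK3*-KO replicate 3.

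*NQO1* (chr16:69740899-69760571), which reduces quinones with NADPH, had 443, 530 and 642 CPM across the *ZK3*-WT libraries against 321, 368 and 651 CPM across the *ZK3*-KO libraries. Replicates 1 and 2 of *ZK3*-KO lay below the *ZK3*-WT range, and replicate 3 had the highest CPM of all libraries by a small margin, while on TPM it (436) lay below *ZK3*-WT replicates 2 and 3 (460 and 539). *NQO1* had a log2 ratio of -0.27 ± 0.29 (FDR 0.676). Without *ZK3*-KO replicate 3 it was -0.64 (FDR 0.0395), the lower end of a range up to 0.935 across the 14 alternatives.

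*HMOX1* (chr22:35776354-35790207), haem oxygenase 1, which breaks down haem and releases iron, measured 17.2, 13.7 and 18.8 CPM (*ZK3*-WT) and 20.01, 21.2 and 37.9 CPM (*ZK3*-KO). The genotypes did not overlap, but *ZK3*-KO replicates 1 and 2 lay just above the highest *ZK3*-WT library. Its log2 ratio was 0.67 ± 0.28 (FDR 0.261), and 0.32 without *ZK3*-KO replicate 3. *SLC48A1*, a haem transporter, was counted at between 17.1 and 19.6 CPM in *ZK3*-WT libraries, and had 18.3, 15.8 and 30.5 CPM across the *ZK3*-KO libraries.

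**Figure D2:**
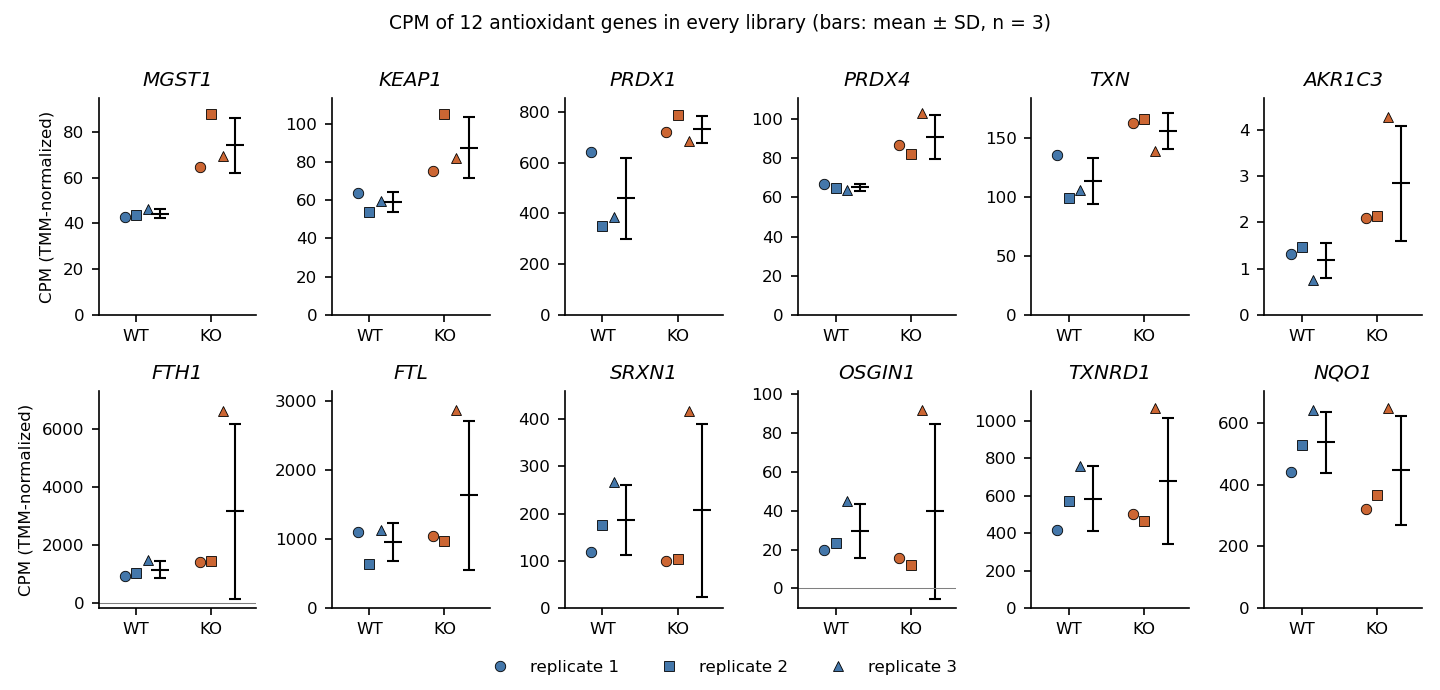
TMM-normalized CPM (y axis, linear, a scale of its own in each panel) of 12 antioxidant genes in *ZK3*-WT (WT) and *ZK3*-KO (KO) libraries, with a marker shape for each replicate number and bars for the mean ± SD (n = 3). In the upper row the knockout points all lie above the parental points, while in the lower row the triangle of *ZK3*-KO replicate 3 is the highest point, as at 6643 CPM for *FTH1*.

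In the plot of CPM by library, *MGST1*, *KEAP1*, *PRDX1*, *PRDX4*, *TXN* and *AKR1C3* stand in the upper row, with *ZK3*-WT values that were close together for *MGST1* and *PRDX4* and spread out for *PRDX1*. In the lower row the *ZK3*-KO mean lay between replicate 3 and the other replicates and described no library. *FTH1*, *FTL*, *SRXN1*, *OSGIN1* and *TXNRD1* were given in full after their values were seen.

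The glutathione genes showed no common direction, and *MGST1* had the smallest p-value of all members. Of 8 tested genes 4 had a higher and 4 a lower fitted level, with a median log2 ratio of 0.0083. *MGST1* (chr12:16500076-16762193), a membrane glutathione transferase and peroxidase, had 42.8, 43.5 and 46.4 CPM across the *ZK3*-WT libraries against 64.8, 87.9 and 69.6 CPM across the *ZK3*-KO libraries. The *ZK3*-WT libraries were nearly equal, and each *ZK3*-KO library was clearly above them. Means ± SD (n = 3 each) were 44.2 ± 1.92 CPM for *ZK3*-WT against 74.1 ± 12.2 CPM for *ZK3*-KO, which corresponds to a log2 ratio of 0.75 ± 0.16 (FDR 0.0659). The FDR of *MGST1* was 0.0140 without *ZK3*-KO replicate 3 and 0.00266 in DESeq2, and between 0.00266 and 0.305 across the 14 alternatives.

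Glutathione synthesis begins with glutamate-cysteine ligase. Its catalytic subunit *GCLC* measured 77.9, 106 and 141 CPM (*ZK3*-WT) and 77.1, 79.7 and 130 CPM (*ZK3*-KO), and the log2 ratio was -0.18 ± 0.28 (FDR 0.784). Both genotypes covered nearly the same range, with replicate 3 the highest in each. Its modifier subunit *GCLM* was counted at between 26.4 and 38.3 CPM in *ZK3*-WT libraries and between 29.7 and 40.2 CPM in *ZK3*-KO libraries (log2 ratio 0.084 ± 0.20). The second enzyme, glutathione synthetase (*GSS*), was between 81.6 and 91.3 CPM in *ZK3*-WT libraries, and the *ZK3*-KO libraries held 87.6, 74.6 and 143 CPM.

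Besides *MGST1*, the tested members that use or regenerate glutathione had log2 ratios from -0.13 for *GPX1* to 0.29 for *GSR*. Glutathione reductase (*GSR*), which restores reduced glutathione from NADPH, had 180, 159 and 190 CPM across the *ZK3*-WT libraries against 223, 234 and 189 CPM across the *ZK3*-KO libraries, with a log2 ratio of 0.29 ± 0.16 (FDR 0.372). *GPX1*, the cytosolic glutathione peroxidase, was the member with every *ZK3*-KO library below every *ZK3*-WT library, but its means were close, 179 ± 10.99 against 163 ± 2.58 CPM (SD, n = 3 each; log2 ratio -0.13, FDR 0.650). *GPX4*, which reduces lipid peroxides in membranes and restrains ferroptosis, was counted at between 190 and 210 CPM in *ZK3*-WT libraries and at 177, 176 and 212 CPM in the *ZK3*-KO replicates. *GSTP1*, a transferase that conjugates glutathione to electrophiles, ranged from 273 to 360 CPM in *ZK3*-WT libraries and from 218 in replicate 3 to 346 CPM in replicate 2 among *ZK3*-KO libraries. *GPX2*, the gastrointestinal glutathione peroxidase, had between 0 and 8 reads in any library and was not tested, and a count of 0 allows up to 3 reads, by counting error alone.

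In the thioredoxin system, *TXN* was higher in CPM, but not in TPM, in all *ZK3*-KO libraries, while *TXNRD1* and *SRXN1* followed replicate 3. Thioredoxin (*TXN*, chr9:113006090-113018787), which reduces protein disulfides, measured 136, 99.2 and 106 CPM (*ZK3*-WT) and 163, 167 and 139 CPM (*ZK3*-KO). In CPM the lowest *ZK3*-KO library lay just above the highest *ZK3*-WT library. On TPM *ZK3*-KO replicate 3 (315) lay below *ZK3*-WT replicate 1 (384). *TXN* had a log2 ratio of 0.46 ± 0.17 (FDR 0.223), and 0.54 (FDR 0.0435) without *ZK3*-KO replicate 3, where the 14 alternatives ranged from 0.0435 to 0.617.

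Thioredoxin reductase 1 (*TXNRD1*, chr12:104609557-104744085), which recharges thioredoxin with NADPH, had 414, 573 and 761 CPM across the *ZK3*-WT libraries against 501, 467 and 1066 CPM across the *ZK3*-KO libraries. Sulfiredoxin (*SRXN1*, chr20:627259-633844), which repairs overoxidized peroxiredoxins, measured 119, 175 and 266 CPM (*ZK3*-WT) and 99.8, 103 and 418 CPM (*ZK3*-KO). For both genes replicate 3 was the highest library of each genotype, and *ZK3*-KO replicate 3 exceeded every other library. For *SRXN1* the remaining *ZK3*-KO libraries lay below all *ZK3*-WT libraries. The log2 ratio of *TXNRD1* was 0.22 (FDR 0.797) with all libraries but -0.26 when *ZK3*-KO replicate 3 was left out, and that of *SRXN1* was 0.15 (FDR 0.923) and -0.88.

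Peroxiredoxins reduce hydrogen peroxide, most of them with electrons from thioredoxin. Of the 6 genes 5 had a higher fitted level in *ZK3*-KO cells, with a median log2 ratio of 0.36 whether or not *ZK3*-KO replicate 3 was included. *PRDX1* (chr1:45976586-46008404), the abundant cytosolic form, had 643, 349 and 386 CPM across the *ZK3*-WT libraries against 720, 788 and 683 CPM across the *ZK3*-KO libraries. The *ZK3*-KO libraries were close together, and *ZK3*-WT replicate 1 lay nearer to them than to the other *ZK3*-WT libraries. *PRDX1* had a log2 ratio of 0.67 ± 0.25 (FDR 0.220). On TPM the genotypes overlapped, with *ZK3*-KO replicate 3 (1178) below *ZK3*-WT replicate 1 (1401).

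*PRDX4* (chrX:23682379-23704514), the form of the endoplasmic reticulum, measured 66.9, 64.8 and 63.6 CPM (*ZK3*-WT) and 86.6, 82.3 and 103 CPM (*ZK3*-KO). Its *ZK3*-WT libraries were nearly equal and lay below every *ZK3*-KO library. The log2 ratio was 0.48 ± 0.14 (FDR 0.147), and the FDR was 0.0376 in DESeq2 and between 0.0376 and 0.457 over the 14 alternatives.

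*PRDX3* (chr10:120927232-120938324), the mitochondrial form, went the other way in *ZK3*-KO replicate 3. It had 229, 186 and 184 CPM across the *ZK3*-WT libraries against 293, 326 and 171 CPM across the *ZK3*-KO libraries, so replicate 3 was the lowest of all libraries and replicates 1 and 2 the highest. *PRDX3* had a log2 ratio of 0.40 ± 0.25 (FDR 0.448), and 0.64 (FDR 0.0190) without that library, the lowest FDR of a range up to 0.777 over the 14 alternatives. *PRDX6*, which also reduces phospholipid peroxides, was between 160 and 191 CPM in *ZK3*-WT libraries and between 212 and 219 CPM in *ZK3*-KO libraries (log2 ratio 0.33, FDR 0.279). *PRDX5* reached 298 CPM in *ZK3*-KO replicate 3 but was between 146 and 179 CPM elsewhere. *PRDX2* had its lowest level, 91.2 CPM, in the same library and was between 112 and 150 CPM elsewhere.

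The pentose phosphate pathway supplies NADPH and rearranges sugar phosphates. Its 3 enzymes among the members had higher fitted levels in *ZK3*-KO cells with log2 ratios from 0.18 to 0.38. Transaldolase (*TALDO1*) measured 132, 99.3 and 107 CPM (*ZK3*-WT) and 145, 151 and 144 CPM (*ZK3*-KO), with no overlap in CPM (log2 ratio 0.38 ± 0.15, FDR 0.247). On TPM *ZK3*-KO replicate 3 (202) lay below *ZK3*-WT replicate 1 (228). 6-phosphogluconate dehydrogenase (*PGD*) overlapped, with a log2 ratio of 0.22 ± 0.18 (FDR 0.560). Transketolase (*TKT*) overlapped as well, with a log2 ratio of 0.18 ± 0.18 (FDR 0.639).

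The aldo-keto reductases reduce aldehydes and ketones with NADPH, and 4 of the 5 had a higher fitted level, but all except *AKR1B1* were rare transcripts in these cells. *AKR1C3* (chr10:5077546-5149878), which also converts steroids and prostaglandins, had 1.32, 1.47 and 0.744 CPM across the *ZK3*-WT libraries against 2.10, 2.15 and 4.29 CPM across the *ZK3*-KO libraries, from 52 to 265 reads. Replicate 3 was the lowest *ZK3*-WT library and the highest *ZK3*-KO library. *AKR1C3* had a log2 ratio of 1.27 ± 0.41 (FDR 0.167), 0.85 without *ZK3*-KO replicate 3, and its FDR was 0.0393 in DESeq2 and between 0.0393 and 0.436 over the 14 alternatives.

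*AKR1B10* (chr7:134212319-134226164) rested on 14 to 38 reads per library. It measured 0.223, 0.228 and 0.243 CPM (*ZK3*-WT) and 0.481, 0.490 and 0.615 CPM (*ZK3*-KO), without overlap (log2 ratio 1.19 ± 0.34, FDR 0.135). *AKR1B1*, aldose reductase, was between 31.6 and 41.0 CPM in *ZK3*-WT libraries and between 46.3 and 50.9 CPM in *ZK3*-KO libraries (log2 ratio 0.40 ± 0.15, FDR 0.216). *AKR1C1* had between 43 and 168 reads and *AKR1C2* between 7 and 28 reads, with log2 ratios of 0.19 ± 0.50 and -0.29 ± 0.68. *AKR1C1*, *AKR1C2* and *AKR1C3* are related neighbours on chromosome 10, as *AKR1B1* and *AKR1B10* are paralogs on chromosome 7. How reads were split among such genes was not tested.

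*SOD2* and *CAT* were lowest in *ZK3*-KO replicate 3. Mitochondrial superoxide dismutase (*SOD2*), which turns superoxide into hydrogen peroxide, had 87.5, 76.9 and 62.3 CPM across the *ZK3*-WT libraries against 96.04, 124 and 46.9 CPM across the *ZK3*-KO libraries, a log2 ratio of 0.24 ± 0.33 (FDR 0.757) that was 0.55 without *ZK3*-KO replicate 3. Catalase (*CAT*), the peroxisomal enzyme that splits hydrogen peroxide, measured 67.0, 61.5 and 48.0 CPM (*ZK3*-WT) and 62.2, 60.2 and 36.2 CPM (*ZK3*-KO) (log2 ratio -0.15 ± 0.24, FDR 0.780). Within both genotypes replicate 3 was the lowest for both genes.

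The plot of fold changes shows where the genotype estimate rested on a single library. The sign turned without *ZK3*-KO replicate 3 for *OSGIN1*, *SRXN1*, *TXNRD1*, *AKR1C1*, *PRDX5*, *SLC48A1*, *GSS*, *GSTP1* and *CAT*. It held for the peroxiredoxins other than *PRDX5*, for the pentose phosphate enzymes, and for *KEAP1*, *NFE2L2*, *MGST1* and *TXN*.

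*ZK3*-KO replicate 3 was the highest of the 6 libraries for 16 members (45.7%; 28.8% of all tested genes) and the lowest for 6 (17.1%; 27.5% of all tested genes). The 16 were *NQO1*, *HMOX1*, *SLC48A1*, *FTL*, *FTH1*, *OSGIN1*, *GSS*, *GPX4*, *TXNRD1*, *SRXN1*, *PRDX4*, *PRDX5*, *AKR1B10*, *AKR1C1*, *AKR1C2* and *AKR1C3*, and the 6 were *CAT*, *SOD2*, *GPX1*, *GSTP1*, *PRDX2* and *PRDX3*. For 14 members (40.0%; 22.2% of all tested genes) replicate 3 was the highest within both genotypes. On the deposited TPM values *ZK3*-KO replicate 3 was the highest library for 11 members (13.4% of all tested genes) and the lowest for 10 (45.6% of all tested genes), and replicate 3 was the highest within both genotypes for 11 members (2761 of the 18366 tested genes).

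**Figure D3:**
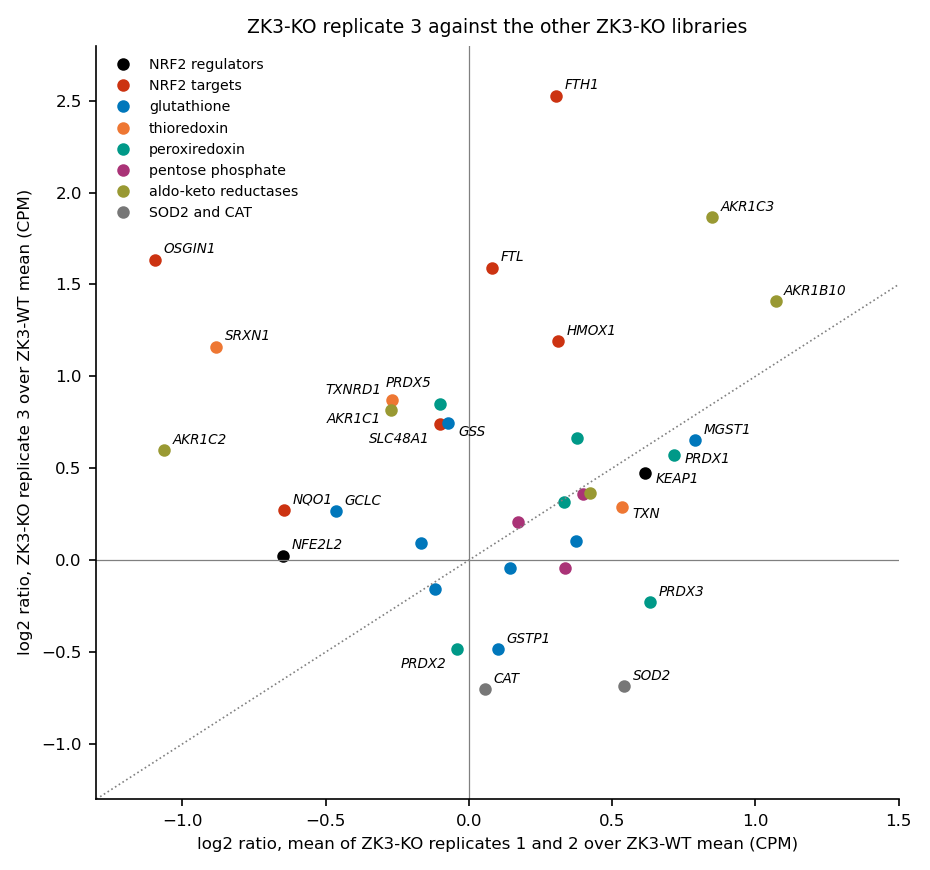
For each of the 35 tested antioxidant genes, the log2 ratio of CPM in *ZK3*-KO replicate 3 to the *ZK3*-WT mean (y axis) against the log2 ratio of the mean of *ZK3*-KO replicates 1 and 2 to the same mean (x axis), coloured by role, with a dotted line where both are equal. *FTH1* lies highest at 2.53, *OSGIN1* and *SRXN1* lie at the upper left with values of opposite sign on the axes, and *MGST1*, *PRDX1* and *KEAP1* lie near the dotted line.

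In this scatter plot, members near the dotted line had about the same level in *ZK3*-KO replicate 3 as in the mean of replicates 1 and 2, and members above it had a higher level in replicate 3. *ZK3*-KO replicates 1 and 2 both lay above every *ZK3*-WT library for 15 members (42.9%; 24.5% of all tested genes). They both lay below for 6 members (17.1%; 26.0% of all tested genes), namely *NFE2L2*, *NQO1*, *OSGIN1*, *SRXN1*, *GPX1* and *GPX4*. For *NQO1*, *OSGIN1*, *SRXN1* and *GPX4* (11.4%; 7.00% of all tested genes) replicate 3 lay above the *ZK3*-WT range at the same time, and on TPM this held for *OSGIN1* and *SRXN1* only. The *ZK3*-KO libraries spanned a wider range than the *ZK3*-WT libraries for 25 of 35 members (71.4%), near the 71.6% of all tested genes. The epithelial marker sum given above was highest in *ZK3*-KO replicate 3. The proliferation sum lay above the *ZK3*-WT range in *ZK3*-KO replicates 1 and 2 and below it in replicate 3. Of its 9 genes 8 rose at an FDR under 0.05 when replicate 3 was left out, against 7.41% of all genes then tested. The part of either sum in these results was not tested. In bulk RNA a change in the share of cells and a change of RNA per cell cannot be told apart.

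Levels between genes were compared on the deposited TPM values. In *ZK3*-WT cells the ferritin chains were the most abundant members, *FTL* at 2309 ± 631 TPM and *FTH1* at 2022 ± 507 TPM (SD, n = 3 each), which did not differ beyond their spread. *PRDX1* followed at 1005 ± 344 TPM and *GSTP1* at 869 ± 125 TPM, again within their spread. *GPX4* at 527 ± 20.7 TPM lay above *GPX1* at 414 ± 17.6 TPM, and *NQO1*, at 457 ± 84.1 TPM, overlapped both. *NFE2L2*, at 143 ± 43.5 TPM, exceeded *KEAP1*, at 48.7 ± 3.24 TPM, in every *ZK3*-WT library. At the lower end stood *AKR1C3* at 2.07 ± 0.730 TPM, *AKR1C1* at 0.531 ± 0.0426 TPM, *AKR1B10* at 0.272 ± 0.0209 TPM and *AKR1C2* at 0.202 ± 0.134 TPM. In *ZK3*-KO cells *FTH1* was at 2449, 2478 and 9239 TPM and *FTL* at 2511, 2326 and 5532 TPM in replicates 1, 2 and 3, so the heavy chain was the higher in replicates 2 and 3 and the light chain in replicate 1.

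A list of 87 other genes of the same pathways gave 75 tested genes. At an FDR under 0.05 *GLRX5* alone rose (1.33%; 0.817% of all tested genes) and *OPLAH* alone fell (1 of 75; 1.23% of all tested genes). Of the 75 genes 47 had a higher and 28 a lower fitted level, and 10 in each direction (13.3% each) had an unadjusted p-value under 0.05 in edgeR's test, against 8.89% (higher) and 9.46% (lower) of all tested genes. *GLRX5*, a mitochondrial glutaredoxin for iron-sulfur clusters, had 38.6, 39.9 and 38.9 CPM across the *ZK3*-WT libraries against 66.2, 81.1 and 75.2 CPM across the *ZK3*-KO libraries (log2 ratio 0.92 ± 0.14, FDR 0.0241). It lies on chromosome 14 (chr14:95999840-96011061), where the median log2 ratio over 504 tested genes was 0.51. *OPLAH*, the oxoprolinase of glutathione breakdown (chr8:145106167-145118868), measured 31.2, 26.3 and 41.3 CPM (*ZK3*-WT) and 8.68, 6.19 and 13.9 CPM (*ZK3*-KO) (log2 ratio -1.78 ± 0.32, FDR 0.0424). For both genes all 3 *ZK3*-KO libraries were on the same side of all *ZK3*-WT libraries. When any single library other than *ZK3*-KO replicate 3 was left out the FDR was between 0.0651 and 0.155 for *GLRX5* and between 0.0818 and 0.180 for *OPLAH*. With the replicate number as a block, *GGT1* (FDR 0.0396) and *SESN3* (FDR 0.0432) fell as well, and without *ZK3*-KO replicate 3, 11 genes rose (14.7%; 7.41% of all genes then tested) and 9 of the 75 fell (7.73% of all genes then tested).

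The 5 other pathway genes with the next smallest p-values missed the threshold with all libraries in edgeR, although all 5 passed it in DESeq2 and without *ZK3*-KO replicate 3. *TXNRD2*, the mitochondrial thioredoxin reductase, had a log2 ratio of 0.81 (FDR 0.0508). *PIR*, an iron-binding NRF2 target, had one of 0.77 (FDR 0.0560), and *ALDH3A1*, an aldehyde dehydrogenase, one of 1.95 (FDR 0.0613). *MSRB1*, a methionine sulfoxide reductase, had one of 0.70 (FDR 0.115), and *TXNRD3*, a further thioredoxin reductase, one of -0.86 (FDR 0.119). *SLC7A11*, the cystine importer that feeds glutathione synthesis, was singled out after its values were seen. It had 221, 397 and 349 CPM across the *ZK3*-WT libraries against 178, 75.2 and 212 CPM across the *ZK3*-KO libraries, with no overlap (log2 ratio -1.05 ± 0.39, FDR 0.219), and it fell by 1.34 on the log2 scale without *ZK3*-KO replicate 3 (FDR 0.0380, with a range up to 0.587 over the 14 alternatives).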

How the data were processed

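The authors sequenced RNA of parental HCT116 and *ZK3*-KO cells (n = 3 each) and deposited a count of reads per gene and library without normalization, FPKM values (per length and depth), and TPM values that give every library a common sum. The methods name Bowtie 2 in Partek Flow on hg19 with Ensembl transcripts, and the submitters' processing notes name Bowtie2 2.2.5 and GRCh37, while the table lists NCBI Gene identifiers. No FPKM value deposited by the authors entered the results, and TPM served for levels between genes and for alternatives.

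The analysis ran in R 4.3.3, with edgeR 4.0.16 for the counts (filterByExpr, TMM, quasi-likelihood test of genotype on all 6 libraries, Benjamini-Hochberg adjustment over all 18366 tested genes, threshold 0.05), because counts need a count model. The methods' linear model on TPM was approached with limma 3.58.1 on log2(TPM + 1). The methods call the replicates biological and do not say how they were grown. The p-values set the genotype difference against the spread between these libraries. All *ZK3*-KO libraries came from a single clone, so the p-values hold no spread between clones. The other alternatives were DESeq2 1.42.0, limma on log2(CPM + 1), upper-quartile factors, library totals alone, no filter (a minimum of 1 read over the libraries), a stricter filter (a minimum of 10 reads per library), the replicate number as a block, and each library left out in turn. Counting the order of the libraries on TPM was chosen after seeing the data.

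The members, the other pathway genes, the marker lists and the rule for naming genes were chosen with earlier results of these data known. The rule names every member, gives all 6 values for *NFE2L2*, *KEAP1*, members past the threshold with all libraries or with a library left out, and members whose genotypes did not overlap with a log2 fold change over 0.5 in size, and names other pathway genes past the threshold and the 5 with the next smallest p-values. *FTH1*, *FTL*, *SRXN1*, *OSGIN1*, *TXNRD1*, *GGT1*, *SESN3*, *SLC7A11* and further values outside the rule were added after they were seen. Departures of same-numbered libraries from their genotype means correlated across genes at 0.473, 0.124 and 0.616. Among unlike numbers *ZK3*-WT 1 with *ZK3*-KO 2 had 0.289, above the same-numbered value of *ZK3*-KO 2, and the rest were negative. The main test did not pair the libraries, and only the alternative with the replicate number as a block did. What the numbers mark is not given in the sources used here. Positions came from a GRCh37 annotation and promoters from RefSeq (GRCh38.p14). The scripts were tested on simulated data.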

Additional observations from a re-analysis of the deposited data

How the results depend on the processing

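Of all tested genes 150 were higher and 226 lower with all libraries. The higher ones numbered 97 without a filter, 711 in DESeq2, 88 in limma on log2(TPM + 1) and 11 to 1399 with a library left out, and the lower ones 795 in DESeq2 and 38 to 1459 with a library left out. Members past the threshold numbered 0 in each direction, 3 higher in DESeq2, and 0 to 4 higher and 0 to 1 lower with a library left out. Of the other pathway genes (1 higher and 1 lower), 5 were higher and 3 lower in DESeq2, 0 lower without a filter, and 0 to 11 higher and 0 to 9 lower with a library left out. With the replicate block, which pairs the libraries by number, 3 were lower, and the call of no member changed. The members' median log2 ratio was 0.095 in limma on log2(TPM + 1), where that of all tested genes was -0.082, and 0.15 to 0.41 with a library left out. With each library left out in turn, the log2 ratio took both signs for *SLC48A1* (-0.094 to 0.42), *OSGIN1* (-1.09 to 0.87), *GCLC* (-0.46 to 0.054), *GCLM* (-0.067 to 0.24), *GSS* (-0.068 to 0.43), *GSTP1* (-0.21 to 0.11), *TXNRD1* (-0.26 to 0.46), *SRXN1* (-0.88 to 0.49), *PRDX5* (-0.10 to 0.48), *AKR1C1* (-0.27 to 0.59), *AKR1C2* (-1.06 to 0.051), *SOD2* (-0.079 to 0.55), *CAT* (-0.28 to 0.064) and *ZKSCAN3* (-0.29 to 0.086). The sign turned without *ZK3*-KO replicate 3 in each of these except *GCLC* (without *ZK3*-WT replicate 3), *GCLM* (without *ZK3*-KO replicate 2 or *ZK3*-WT replicate 1), *AKR1C2* and *SOD2* (both without *ZK3*-KO replicate 2), and also without *ZK3*-WT replicate 1 for *GSTP1* and *SRXN1*. It turned with the replicate block for *OSGIN1* (-0.10), *SRXN1* (-0.12) and *AKR1C1* (-0.018), in limma on log2(CPM + 1) for *OSGIN1* (-0.079) and *SRXN1* (-0.12), and in limma on log2(TPM + 1) for *OSGIN1* (-0.20), *GCLM* (-0.043), *SRXN1* (-0.24) and *AKR1C1* (-0.015). The cause was not tested. Counting error was largest for *GPX2* (0 to 8 reads per library), *AKR1C2* (7 to 28) and *AKR1B10* (14 to 38).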

Other observations

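Single libraries follow the order of replicates 1, 2 and 3, and log2 ratios carry their standard error. Among the partners and repressors of NRF2, picked here with their values known, *BACH1*, a repressor at antioxidant response elements, measured 37.4, 53.3 and 47.6 CPM (*ZK3*-WT) and 31.5, 31.0 and 21.2 CPM (*ZK3*-KO). All *ZK3*-KO libraries lay below all *ZK3*-WT libraries, with a log2 ratio of -0.73 (standard error 0.21, FDR 0.141 from edgeR), and *BACH1* lies on chromosome 21, whose 141 tested genes had a median of -0.39. *SQSTM1*, which encodes p62, a protein that binds KEAP1 and is itself an NRF2 target, had 361, 399 and 637 CPM across the *ZK3*-WT libraries against 323, 297 and 1240 CPM across the *ZK3*-KO libraries. Its libraries stood in the order seen for *SRXN1* and *OSGIN1*, with *ZK3*-KO replicates 1 and 2 below and replicate 3 above the *ZK3*-WT range. The same order was found for *MAFG*, *MAFK* and *NFE2L1* in this list, and for 7.00% of all tested genes. *MAFF*, another small MAF partner of NRF2, measured 18.7, 38.0 and 45.5 CPM (*ZK3*-WT) and 11.3, 7.47 and 37.8 CPM (*ZK3*-KO). Its log2 ratio was -0.86 ± 0.61 (FDR 0.502), and the genotypes overlapped because of *ZK3*-KO replicate 3.

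Of the 87 other pathway genes 12 were not tested, and *CBR1*, *GSTM3*, *TXNIP*, *SOD3*, *AKR1B15* and *AKR1C4* were listed at 0 reads in all 6 libraries, where a lack of RNA and a limit of the counting cannot be told apart.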
